A study of Mus musculus with 4 samples.

Results

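Muscle contracts through a set of proteins that most other cells make little of, and 45 genes of this kind were followed in mouse embryonic stem cells (ESC) exposed to a histone deacetylase inhibitor. The set was fixed by gene symbol and holds the actins, alpha-actinins, myosins, troponins and tropomyosins of striated muscle, the contractile genes of smooth muscle, sarcomere scaffold proteins, muscle creatine kinase, the ryanodine receptors and the muscle transcription factors. Of the 45 symbols, 44 were found among the 28250 genes listed for each library. Tnni1, the slow skeletal inhibitory troponin, was not listed and has no expression value here.

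RNA-seq had been done on TBV2, a mouse ESC line, in 2 groups of 2 libraries each. Solvent replicates 1 and 2 were made from cells that had received the vehicle alone for 24 h, and MS-275 replicates 1 and 2 from cells exposed for 24 h to MS-275 at 5 µM, a benzamide that inhibits class I histone deacetylases. The labels describe upkeep on feeder cells with LIF, the cytokine that holds ESC undifferentiated, and gelatin-coated plates, for all 4 libraries. They name no mutation or transgene and do not say whether the replicates came from separate cultures, so the p-values measure the spread between these libraries, which may be technical.

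In striated muscle, thick filaments of myosin pull on thin filaments of actin inside the sarcomere. Calcium released through ryanodine receptors binds troponin C, and the troponin and tropomyosin strand then uncovers the sites on actin where myosin attaches. Smooth muscle has no troponin, and its contraction is switched on when myosin light chain kinase phosphorylates the regulatory light chain. Many of these genes are driven by serum response factor (SRF) bound to a short sequence called the CArG box, by MEF2 factors, and in skeletal muscle by the MyoD family. In undifferentiated ESC they are largely silent, and some of the smooth muscle genes are also made by fibroblasts, the usual feeder cells.

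The authors deposited a normalized expression value per gene and the positions of the 35-base alignments on mm9. The values could be rebuilt from the alignments for part of the genes as 10000000 times the alignments on a transcript, divided by the alignments in the library and by the transcript length in bases. For these genes a value of 0.01 stands for an RPKM of 1 (alignments per kilobase of transcript, scaled to the size of the library). Among single-transcript genes, 39.6% to 45.1% of the values of a library came within 5% of this formula when the alignments of its sister replicate in the group were used, and 4.09% to 6.37% when its own were used. Computed over all annotated exons, the formula came within 2-fold of the value in every library with alignments for 21 of the 44 members. For 12 members, Ttn, Tpm1 and Myl4 among them, the value was over 2-fold above it throughout, so levels are compared between genes only as deposited values. The alignment counts below are therefore given by the library whose values they rebuild. On this reading, the values of replicate 1 rest on 9785619 (solvent) and 10915650 (MS-275) alignments with no position repeated, and those of replicate 2 on 23467935 and 20008841, in which 53.2% and 54.4% fall on a position already taken. To set the 2 kinds of library side by side, distinct alignment positions on annotated exons were also counted. The ESC genes were on in all 4 libraries, with Pou5f1, the gene of OCT4, at 0.727 and 2.33 with solvent and 0.575 and 0.786 with MS-275.

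The data show a rise of part of the contractile genes, some of them from a very low level, rather than of the set as a whole. The smooth muscle genes Myh11, Cnn1 and Myl9, the fast troponins Tnnc2 and Tnni2, the atrial light chain Myl4 and alpha-actinin 2 (Actn2) were 4.89 to 26.7 times higher in the mean value with MS-275, while Acta1, Tagln, Myl3, Myl7, Tpm1 and Ryr2 differed by less than the spread between libraries. The test compared log2(value + 0.005) between the groups with limma over the 20336 genes that reached 0.001 in 2 or more libraries, which included 42 members, and the difference is called the log2 change. Without a replicate block, 0 of the 42 members passed a Benjamini-Hochberg adjusted p of 0.05 (0.00492% of all genes tested passed as higher and 0% as lower), and at an unadjusted p under 0.05 there were 17 higher and 0 lower (all genes: 14.6% and 2.77%). When a mean value of at least 0.01 was required, 6 of 25 members passed the adjusted p as higher and 0 as lower (all genes: 3.16% and 0.441%). This mean takes in the MS-275 libraries. Of the 6, Myh11, Tnnc2 and Tnni2 had both solvent values under 0.01, so they met it only through MS-275 and had to differ. In the authors' headers the replicate 1 columns of either group are called old, and the replicate number was therefore also fitted as a block. With this block, 22 members were called higher, 1 lower and 19 neither, against 21% of all genes higher and 6.46% lower. The 22 include Mef2c and Myod1, which reached the filter only through their MS-275 libraries and therefore had to differ. Among genes with a solvent library at 0.001 or more, 20 of 38 members were called higher and 1 lower, against 19.3% and 6.81% of 19292 genes. Among all genes the share of calls that were higher fell from 76.5% to 54.4% with median-ratio scaling and to 49.8% with quantile normalization. With median-ratio scaling 21 members were called higher and 2 lower, beside 3344 and 2806 of all 20336 genes. With quantile normalization 15 members were called higher and 2 lower, beside 2936 and 2961 of all genes. Of the 20 members called higher and 1 called lower before scaling, 14 stayed past the threshold in every fit with a block. The 7 that did not were Actn3 (the lower call), Acta2, Myh7, Tnnt2, Mybpc2, Ckm and Ryr1.

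The median log2 change of the 42 members tested was 0.78, beside 0.20 over all genes tested. Myh2, Myl1, Myod1 and Mef2c entered the test only through their MS-275 libraries, and Myh1 and Myf5 did not enter it, so this median describes the genes that passed and not the set. Both MS-275 values lay above both solvent values for 26 of the 44 members and below for 0, against 26.1% and 9.09% of all genes listed. With values under 0.001 set to 0.001, a rise of at least 2-fold in both replicate pairs was seen for 18 members and a fall of that size for 0 (all genes: 11.5% and 2.04%). With a floor of 0.01 these were 10 and 0 (4.47% and 1.28%). By distinct positions, limma-voom called 13 of the 32 members tested higher and 1 lower without the block (all genes: 15.2% and 5.11%), and 21 higher and 1 lower with it (29.9% and 13.9%). Mef2c, Tnni2 and Tnnc1 had 10 positions only in MS-275 libraries, and without such genes 19 of 29 members were called higher and 1 lower with the block (25.9% and 14.8%). In bulk RNA, more cells that make a transcript and more transcript per cell cannot be told apart.

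**Figure D1:**
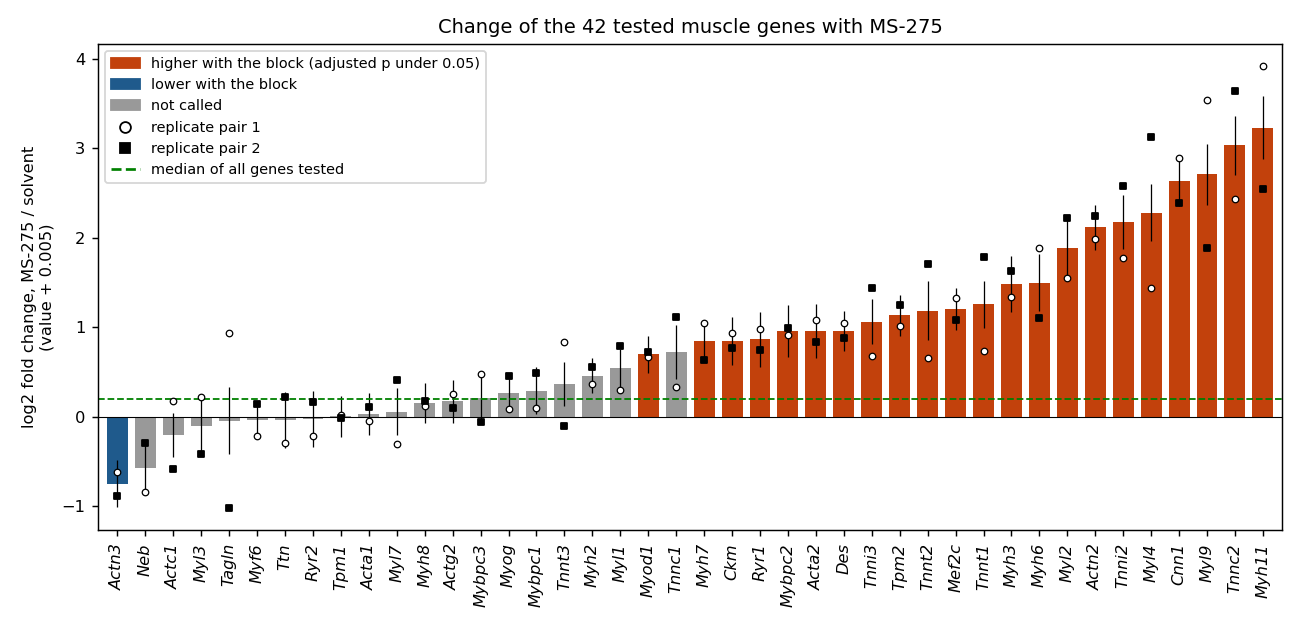
Log2 change of MS-275 over solvent on log2(value + 0.005) for the 42 tested members (bars), with the standard error of the fit with the replicate block (lines), the change within each replicate pair (circles and squares) and the median of all genes tested, 0.20 (dashed line). Bars run from -0.75 for Actn3 to 3.23 for Myh11, and the pairs lie on opposite sides of 0 for Tagln, Ttn and Ryr2 among others. Myh2, Myl1, Myod1 and Mef2c entered only through their MS-275 libraries.

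Motifs were read in the 250 bases before the RefSeq start of the 36 members that have a promoter sequence in the table used (GRCm38.p6). A CArG box lay in this window of 5 members, Acta1, Actc1, Myl9, Myl3 and Myl7, which is 13.9% of the 36, against 1.62% of the 27025 genes in the table. A MEF2 site lay in that of Myh1, Myh8, Ttn and Mybpc3 (11.1%, against 3.42%) and the E-box CAGCTG in that of 11 members (30.6%, against 14.7%). All 3 motifs read the same on both strands. The 175 bases before the start of the 5 genes with a CArG box follow, from 5′ to 3′, with the box in capitals, because 1 of the 5 was called and the others were not. They were placed on mm9 by exact match.
Myl9 (chr2:156601025-156601199, plus strand): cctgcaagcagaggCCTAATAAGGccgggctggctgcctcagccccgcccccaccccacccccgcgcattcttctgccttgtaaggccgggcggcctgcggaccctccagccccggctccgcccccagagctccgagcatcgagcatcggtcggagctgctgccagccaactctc
Acta1 (chr8:126418676-126418850, minus strand): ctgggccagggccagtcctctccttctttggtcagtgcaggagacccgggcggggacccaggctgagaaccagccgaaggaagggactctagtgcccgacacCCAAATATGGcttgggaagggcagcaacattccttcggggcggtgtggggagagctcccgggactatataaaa
Actc1 (chr2:113878612-113878786, minus strand): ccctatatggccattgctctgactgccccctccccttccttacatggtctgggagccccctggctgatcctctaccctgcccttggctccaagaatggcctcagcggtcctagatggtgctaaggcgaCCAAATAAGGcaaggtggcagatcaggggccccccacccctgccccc
Myl3 (chr9:110666007-110666181, plus strand): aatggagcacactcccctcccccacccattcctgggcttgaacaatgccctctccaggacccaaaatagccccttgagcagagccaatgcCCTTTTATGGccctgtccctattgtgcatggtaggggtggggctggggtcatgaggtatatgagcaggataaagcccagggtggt
Myl7 (chr11:5798786-5798960, minus strand): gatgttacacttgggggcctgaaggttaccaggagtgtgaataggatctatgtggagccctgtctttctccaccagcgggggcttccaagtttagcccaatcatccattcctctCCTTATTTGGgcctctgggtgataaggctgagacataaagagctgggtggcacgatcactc
Myl9 was called higher with the block, and the 4 other genes were not called in either direction. The box starts 161 bases before the start in Myl9 and between 47 and 85 bases before it in the others. No match in this window says nothing of sites elsewhere, and Myh11, Tagln and Actg2 have no promoter in the table.

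Of the 6 smooth muscle genes, 4 were called higher with the block and 2 were not, where 21% of all genes tested were called higher. Myh11 (mm9 chr16:14194620-14291501), the heavy chain of smooth muscle myosin, had values of 0.00162 and 0.00366 with solvent and 0.0954 and 0.0456 with MS-275. Both MS-275 libraries stood far above both solvent libraries, and the mean value was 26.7-fold higher. Its log2 change of 3.23 ± 0.65 (± SE without the block, n = 2 per group, as for all log2 changes below) is pulled down by the pseudocount, and its adjusted p was 0.0612 without the block and between 4.18e-10 and 0.000341 in the 6 fits with it. Distinct positions on its exons numbered 8 and 10 with solvent and 462 and 175 with MS-275, a 36.7-fold higher rate per position deposited. With the exon bases split at their midpoint, the rise was 4.90 on the 5′ side and 5.28 on the 3′ side on the log2 scale.

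Cnn1 (mm9 chr9:21903725-21914074), the actin-binding protein calponin of smooth muscle, went the same way. Its values were 0.0105 and 0.0148 with solvent and 0.110 and 0.0991 with MS-275, with no overlap between the groups and a mean 8.24-fold higher. The log2 change was 2.64 ± 0.56 and the adjusted p 0.0645 without the block and between 5.04e-08 and 0.000234 in the 6 fits with it. Myl9 (mm9 chr2:156601156-156607394), a regulatory light chain of smooth muscle and non-muscle myosin, had values of 0.00661 and 0.0293 with solvent and 0.130 and 0.122 with MS-275. The solvent libraries lay apart from each other here, and the rise was 3.54 on the log2 scale in pair 1 and 1.88 in pair 2. The fit gave 2.71 ± 0.64 and an adjusted p of 0.0743 without the block and between 3.09e-06 and 0.000434 in the 6 fits with it.

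Acta2, the smooth muscle alpha-actin, rose less. Its values were 0.0303 and 0.0101 with solvent and 0.0696 and 0.0219 with MS-275. Solvent replicate 1 lay above MS-275 replicate 2, so the groups overlapped, while both pairs rose. The log2 change was 0.96 ± 0.74, the adjusted p 0.613 without the block and between 0.00171 and 0.212 in the 6 fits with it, and the call was lost with both other scalings. Tagln, the actin-bundling protein transgelin (SM22-alpha), rose in pair 1 and fell in pair 2 (0.94 and -1.03), with values of 0.0321 and 0.0437 with solvent and 0.0661 and 0.0189 with MS-275, and its fit gave -0.045 ± 0.67. Actg2, the enteric smooth muscle actin, stayed between 0.00265 and 0.00408 in all libraries.

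Markers of fibroblasts, the usual feeder cells, moved beside the smooth muscle genes. Of 15 fibroblast genes, 14 were tested, and 7 were called higher and 0 lower with the block, where 21% and 6.46% of all genes were. The summed value of the 15 was 0.434 and 0.548 with solvent and 0.796 and 0.964 with MS-275. Col1a1, the main collagen of connective tissue, went from 0.0146 and 0.0101 to 0.0681 and 0.110 (log2 change 2.41 ± 0.60), and Fbn1, the microfibril protein fibrillin 1, rose by 1.37 ± 0.82 on the log2 scale. Col3a1 and Dcn, a collagen and a small proteoglycan of fibroblasts, had log2 changes of -0.52 ± 0.49 and -0.72 ± 0.64 and were not called by limma with the block. By distinct positions with the block, limma-voom called 8 of 13 fibroblast genes higher and 1 lower (all genes: 29.9% and 13.9%). The 1 called lower was Col3a1 (log2 change -1.09, limma-voom adjusted p 0.0259). Fap, a protease of activated fibroblasts, was listed at 0 in 3 libraries and at 0.000360 in solvent replicate 1. The part of feeder cells in the smooth muscle values was not tested.

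Among the sarcomeric actins and actinins, the 2 actins stayed near the lower end and the 2 actinins moved in opposite directions. Acta1 and Actc1, the skeletal and cardiac alpha-actins, had values between 0 and 0.00777 in the 4 libraries, with overlap between the groups. Actn2 (mm9 chr13:12361693-12433027), which ties thin filaments to the Z-disc in heart and slow muscle, had values of 0.0316 and 0.0297 with solvent and 0.140 and 0.160 with MS-275. The libraries of a group lay close together and the groups far apart, with a log2 change of 2.12 ± 0.45 and an adjusted p of 0.0645 without the block and between 1.11e-08 and 0.000332 in the 6 fits with it. Positions numbered 59 and 115 with solvent and 335 and 340 with MS-275.

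Actn3, the actinin of fast muscle fibres, was the 1 member called lower with the block. Its values were 0.100 and 0.0580 with solvent and 0.0637 and 0.0291 with MS-275. Both pairs went down (log2 changes of -0.62 and -0.88), although the groups overlapped. The log2 change was -0.75 ± 0.56, and the adjusted p 0.593 without the block and between 0.000338 and 0.0666 in the 6 fits with it. By distinct positions its rate with MS-275 was 0.531 of that with solvent, with limma-voom adjusted p values of 0.0365 without and 0.000338 with the block. Neb joined it among the members called lower when median-ratio scaling or quantile normalization was added to the block.

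**Figure D2:**
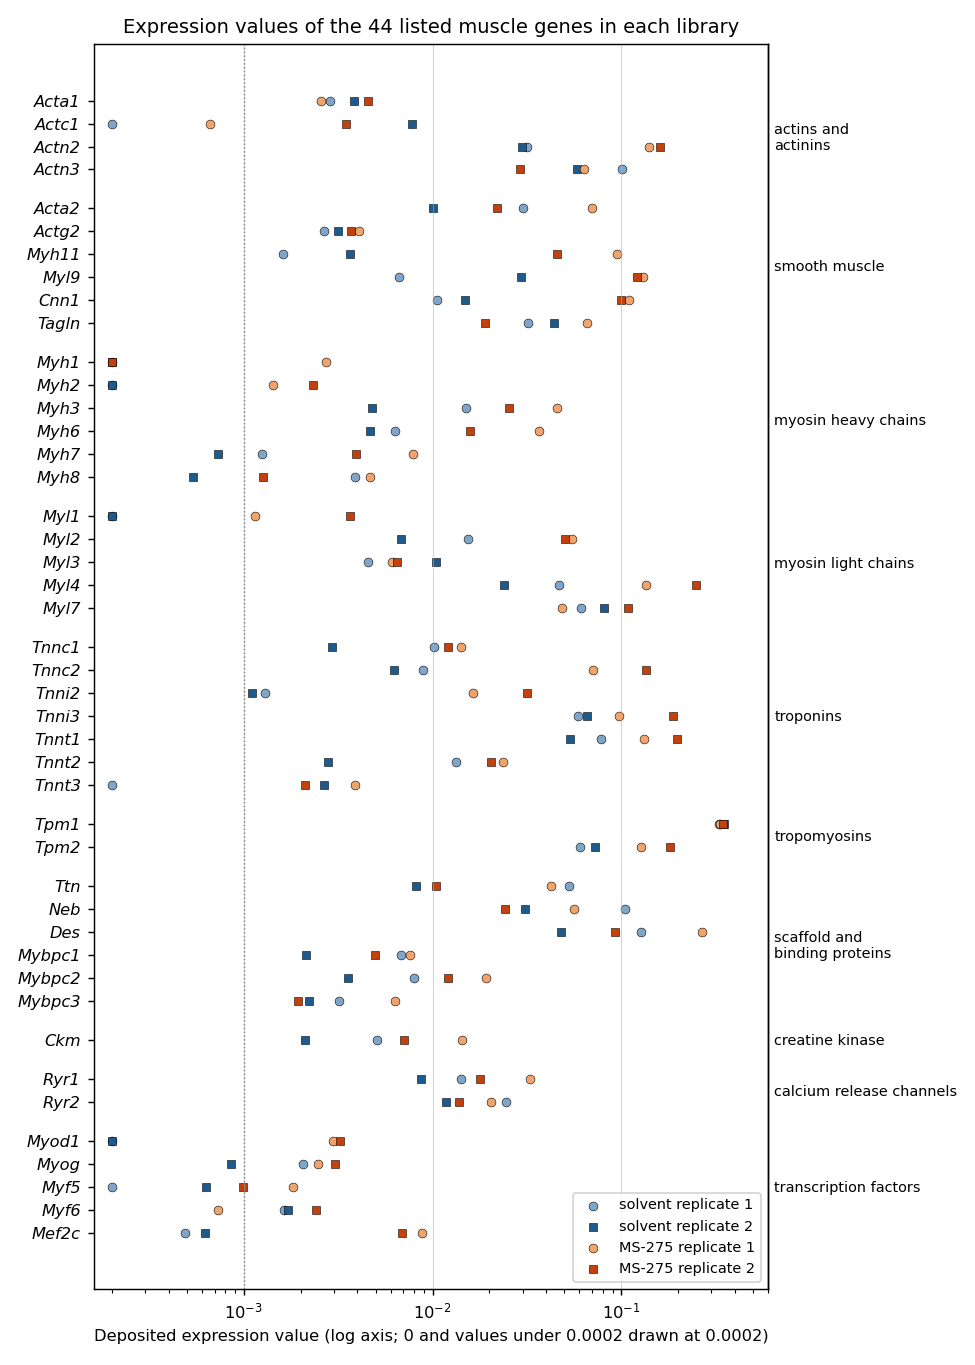
Deposited expression value of the 44 listed members in each library (log axis), grouped by role, with values of 0 drawn at the left edge. The dotted line marks 0.001, and the MS-275 points of Myh11, Cnn1, Myl9, Actn2, Tnnc2 and Tnni2 lie to the right of both solvent points.

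The myosin heavy chains that rose were those of embryonic and cardiac muscle. Myh3, the embryonic skeletal heavy chain, had values of 0.0150 and 0.00479 with solvent and 0.0455 and 0.0254 with MS-275, with a log2 change of 1.48 ± 0.67 and an adjusted p of 0.291 without the block and between 1.27e-07 and 0.0208 in the 6 fits with it. Myh6, the alpha heavy chain of the atrium, had 0.00629 and 0.00466 with solvent and 0.0367 and 0.0158 with MS-275, with 1.50 ± 0.59 and an adjusted p of 0.228 without the block and between 1.95e-07 and 0.0280 in the 6 fits with it. Both MS-275 libraries of these genes exceeded both solvent libraries.

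Myh7, the beta heavy chain of ventricle and slow muscle, had lower values than Myh3 and Myh6 in every library and also rose with MS-275. Its values were 0.00125 and 0.000730 with solvent and 0.00791 and 0.00392 with MS-275, and its log2 change was 0.84 ± 0.28 with an adjusted p of 0.160 without the block and between 0.000772 and 0.139 in the 6 fits with it. The heavy chains are near copies of each other in places, and 29.6% of the 35-base exon windows of Myh6, 21.3% of Myh7 and 10.7% of Myh3 occur elsewhere in mm9. On windows that occur once, Myh6 had 36 and 49 positions with solvent and 241 and 137 with MS-275, and Myh7 had 5 and 8 against 39 and 26. Both genes were thus also higher in sequence that occurs once in the genome.

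The adult fast heavy chains were at or next to 0. Myh2 (fast 2A) had no exon position in either solvent library and 1 and 5 with MS-275. This rate is 2.07 times that of a floor of 3 counts over the solvent group. The counting error of the MS-275 positions is not covered, so the ratio is no lower limit. Myh1 (fast 2X) had 0 and 0 against 2 and 0, and Myh8, the perinatal chain, stayed at or under 0.00465 in all libraries.

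Of the 5 myosin light chains, 2 were called higher with the block, against 21% of all genes tested. Myl4, the essential light chain of atrium and embryonic muscle, had values of 0.0468 and 0.0239 with solvent and 0.135 and 0.248 with MS-275. The rise was larger in pair 2 (3.13 on the log2 scale) than in pair 1 (1.44), and the fit gave 2.28 ± 0.50 with an adjusted p of 0.0689 without the block and between 2.57e-06 and 0.000938 in the 6 fits with it. By distinct positions, which numbered 37 and 40 with solvent and 136 and 123 with MS-275, both pairs rose.

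Myl2, the regulatory light chain of ventricle and slow muscle, had values of 0.0153 and 0.00683 with solvent and 0.0545 and 0.0503 with MS-275, a log2 change of 1.89 ± 0.63 and an adjusted p of 0.160 without the block and between 0.000261 and 0.00165 in the 6 fits with it. The groups did not overlap. Myl7, the atrial regulatory light chain, was higher than Myl4 in both solvent libraries and was not called, with 0.0610 and 0.0807 with solvent and 0.0485 and 0.109 with MS-275 and a log2 change of 0.054 ± 0.51. Myl3, the ventricular essential light chain, stayed between 0.00455 and 0.0104, and Myl1, that of fast muscle, had no position with solvent and 1 and 5 with MS-275.

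Troponins form the calcium switch of the thin filament. Of the 7 listed, 5 were called higher with the block, against 21% of all genes tested. Tnnc2, the calcium-binding subunit of fast muscle, had values of 0.00895 and 0.00622 with solvent and 0.0705 and 0.135 with MS-275. Both MS-275 libraries were far above the solvent libraries, with a log2 change of 3.04 ± 0.63 and an adjusted p of 0.0631 without the block and between 3.89e-07 and 0.000303 in the 5 fits with it. Of its 800 exon bases, 592 overlap exons of Ube2c, a ubiquitin-conjugating enzyme of dividing cells on the other strand, and the libraries do not keep the strand. On the 208 bases of Tnnc2 alone, positions numbered 0 and 2 with solvent and 7 and 21 with MS-275, and the value of Ube2c itself was lower with MS-275 in both pairs (0.407 and 0.995 against 0.324 and 0.654).

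Tnni2, the inhibitory subunit of fast muscle, had values of 0.00129 and 0.00111 with solvent and 0.0165 and 0.0315 with MS-275, which is 20.0-fold higher in the mean. Its log2 change was 2.17 ± 0.47, its adjusted p 0.0675 without the block and between 8.94e-06 and 0.000785 in the 5 fits with it, and its positions numbered 1 and 4 with solvent and 15 and 51 with MS-275. All of these MS-275 positions lay on the 3′ side of the midpoint of its exon bases, and the 5′ side held 0 and 0. The rise of Tnni2 therefore rests on the 3′ side alone. Tnnt1, the tropomyosin-binding subunit of slow muscle, had the highest mean value of the troponins, at 0.0779 and 0.0536 with solvent and 0.133 and 0.197 with MS-275. It rose by 1.26 ± 0.42 on the log2 scale, with an adjusted p of 0.161 without the block and between 8.24e-05 and 0.00660 in the 6 fits with it.

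The cardiac subunits Tnni3 and Tnnt2 were called higher as well. Tnni3, the cardiac inhibitory subunit, had values of 0.0589 and 0.0661 with solvent and 0.0975 and 0.188 with MS-275 and a log2 change of 1.06 ± 0.45 (adjusted p 0.265 without the block and between 0.00115 and 0.0179 in the 6 fits with it). Tnnt2, the cardiac tropomyosin-binding subunit, had 0.0132 and 0.00280 with solvent and 0.0237 and 0.0205 with MS-275 and 1.18 ± 0.62 (adjusted p 0.386 without the block and between 0.0144 and 0.117 in the 6 fits with it). Tnnc1, shared by heart and slow muscle, was higher in both MS-275 libraries (0.0102 and 0.00292 with solvent and 0.0141 and 0.0121 with MS-275) and was not called, with an adjusted p of 0.0899 with the block. Tnnt3, of fast muscle, overlapped between the groups. Exon positions of Tnni1, which has no listed value, numbered 14 and 45 with solvent and 32 and 38 with MS-275, a rate 1.23 times that with solvent.

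The 2 tropomyosins did not move alike. Tpm1, made in many cell types, had the highest deposited value of the members in every library, with values of 0.330 and 0.350 with solvent and 0.335 and 0.346 with MS-275. Its log2 change of 0.0016 ± 0.41 became -0.28 with median-ratio scaling and -0.14 by distinct positions, and it was called in no fit. Tpm2, the beta chain, had 0.0606 and 0.0728 with solvent and 0.128 and 0.180 with MS-275 and rose by 1.13 ± 0.41 (adjusted p 0.190 without the block and between 0.000143 and 0.00757 in the 6 fits with it). The groups did not overlap.

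Among the scaffold and binding proteins, desmin and fast myosin-binding protein C rose, and the giant proteins titin and nebulin were not called on the deposited values as given. Des, the intermediate filament of muscle and the highest member of this role, had values of 0.127 and 0.0480 with solvent and 0.268 and 0.0922 with MS-275. Both pairs rose while replicate 1 lay above replicate 2 in each group, so the groups overlapped, and the log2 change was 0.96 ± 0.59 with an adjusted p of 0.488 without the block and between 1.57e-05 and 0.0279 in the 6 fits with it. Mybpc2, the fast form of myosin-binding protein C, had 0.00793 and 0.00355 with solvent and 0.0193 and 0.0120 with MS-275 and rose by 0.95 ± 0.51 (adjusted p 0.404 without the block and between 0.000194 and 0.305 in the 6 fits with it). The slow and cardiac forms Mybpc1 and Mybpc3 overlapped between the groups, at 0.00193 to 0.00763. By distinct positions Mybpc1 did not overlap, with 14 and 9 with solvent and 27 and 29 with MS-275, and the limma-voom adjusted p was 0.0206 under the block and 0.111 when it was left out. Neb, the thin filament ruler nebulin, had 0.104 and 0.0310 with solvent and 0.0558 and 0.0243 with MS-275 and a log2 change of -0.57 ± 0.68 that turned to 0.16 by distinct positions.

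Ttn (mm9 chr2:76542037-76820604, minus strand), the spring and ruler of the sarcomere, had values that overlapped between the groups while its alignments were spread differently along the gene. Its values were 0.0531 and 0.00818 with solvent and 0.0424 and 0.0104 with MS-275, with a log2 change of -0.035 ± 0.87. By distinct positions over the whole gene limma-voom called it higher with the block, by 0.46 on the log2 scale (adjusted p 0.0248). These values were far above what the alignments on all its exons give, 0.00303 for solvent replicate 1, so they were not computed over all annotated exons. The alignments were then read along the gene, and the split described here was chosen after they were seen, so it carries no test. The exons from the start of the gene to the end of the short annotated transcript Ttn-021 (chr2:76752001-76820604, 43 exons) held 11 and 5 distinct positions with solvent and 181 and 152 with MS-275, a 21.6-fold higher rate. The rest of the gene (chr2:76542037-76752000, 302 exons) held 336 and 234 against 309 and 142, at 0.820 times the rate with solvent.

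The last exon of Ttn-021 (chr2:76752001-76758520, 6520 bases) held 2 and 1 positions with solvent and 70 and 83 with MS-275. The end of the intron before it and the first bases of the exon are shown because this exon ends Ttn-021. The 30 intron bases are in lower case and the 90 exon bases in capitals.
Ttn (chr2:76758431-76758550, minus strand): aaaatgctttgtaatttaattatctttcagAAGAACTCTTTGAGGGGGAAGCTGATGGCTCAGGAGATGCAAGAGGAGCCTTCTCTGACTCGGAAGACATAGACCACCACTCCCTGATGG
Of 28 members with at least 20 positions on either side of the midpoint of their exon bases, Ttn had the largest gap between the changes of the 2 sides, 2.61 on the 5′ side and -0.39 on the 3′ side on the log2 scale. Mybpc1 came next (2.60 and 0.88), and in 25 members the sides differed by less than 1.

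**Figure D3:**
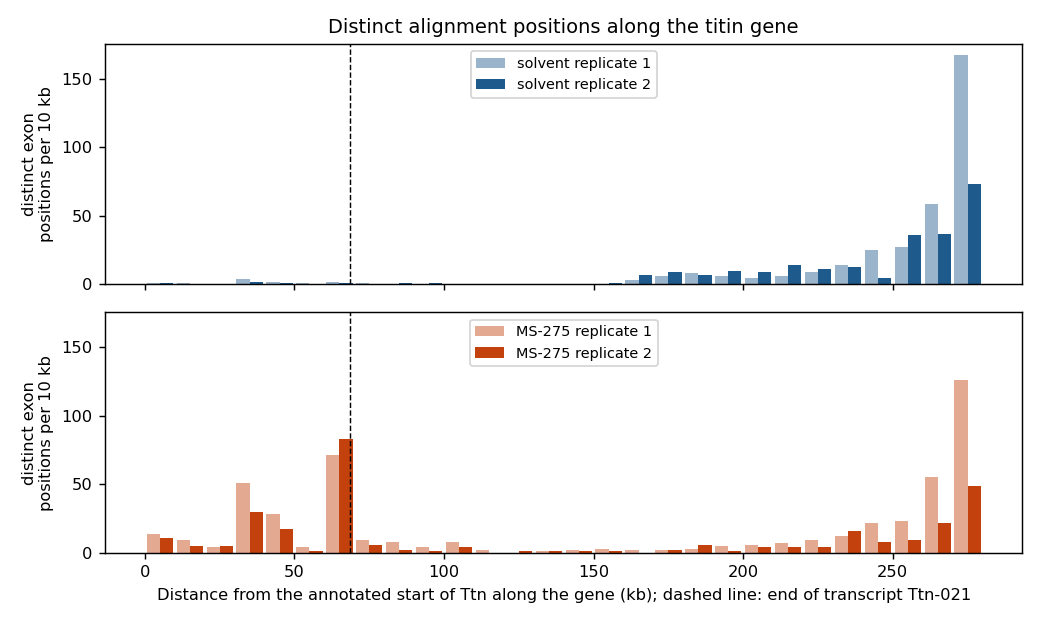
Distinct alignment positions on Ttn exons per 10 kb (vertical axis) against the distance from the annotated start of the gene (horizontal axis, kb), for solvent (top) and MS-275 (bottom), with the end of Ttn-021 as a dashed line. Left of the line the solvent libraries hold 11 and 5 positions and the MS-275 libraries 181 and 152, while the peak at the far end of the gene is present in all 4.

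Ckm, the creatine kinase that rebuilds ATP in muscle, had low values of 0.00506 and 0.00211 with solvent and 0.0143 and 0.00707 with MS-275. The log2 change was 0.85 ± 0.43 and the adjusted p 0.359 without the block and between 0.0279 and 0.345 in the 5 fits with it. Of the calcium release channels, Ryr1 of skeletal muscle had 0.0142 and 0.00865 with solvent and 0.0329 and 0.0178 with MS-275, with a log2 change of 0.86 ± 0.63 and an adjusted p of 0.577 without the block and between 4.67e-06 and 0.463 in the 6 fits with it. Its positions numbered 224 and 300 with solvent and 580 and 466 with MS-275. Ryr2 of the heart had 0.0246 and 0.0118 with solvent and 0.0204 and 0.0138 with MS-275 and a log2 change of -0.027 ± 0.63, and the groups overlapped.

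The transcription factors of muscle were among the lowest of the set. Of the 4 that were tested, Mef2c and Myod1 entered only through their MS-275 libraries, so their p-values are not given, and Myog and Myf6 were not called. Mef2c, a MADS box factor of heart and skeletal muscle, had values of 0.000490 and 0.000620 with solvent and 0.00875 and 0.00692 with MS-275. Both solvent libraries were near the lower end and both MS-275 libraries over 10 times higher. Its positions numbered 2 and 7 with solvent and 50 and 59 with MS-275, a 12.5-fold higher rate.

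Myod1, which can turn other cells into skeletal muscle, was listed at 0 in both solvent libraries and at 0.00296 and 0.00323 with MS-275. Its exons held 0 and 0 positions with solvent and 6 and 12 with MS-275. This rate is 6.22 times that of the floor of 3 counts over the solvent group, again without the counting error of the MS-275 positions. The other MyoD family members were close to the limit of the data. Myog, Myf5 and Myf6 held 3 and 3, 0 and 3, and 2 and 4 positions with solvent and 4 and 6, 4 and 5, and 1 and 7 with MS-275, so a change was not detectable at this depth.

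**Figure D4:**
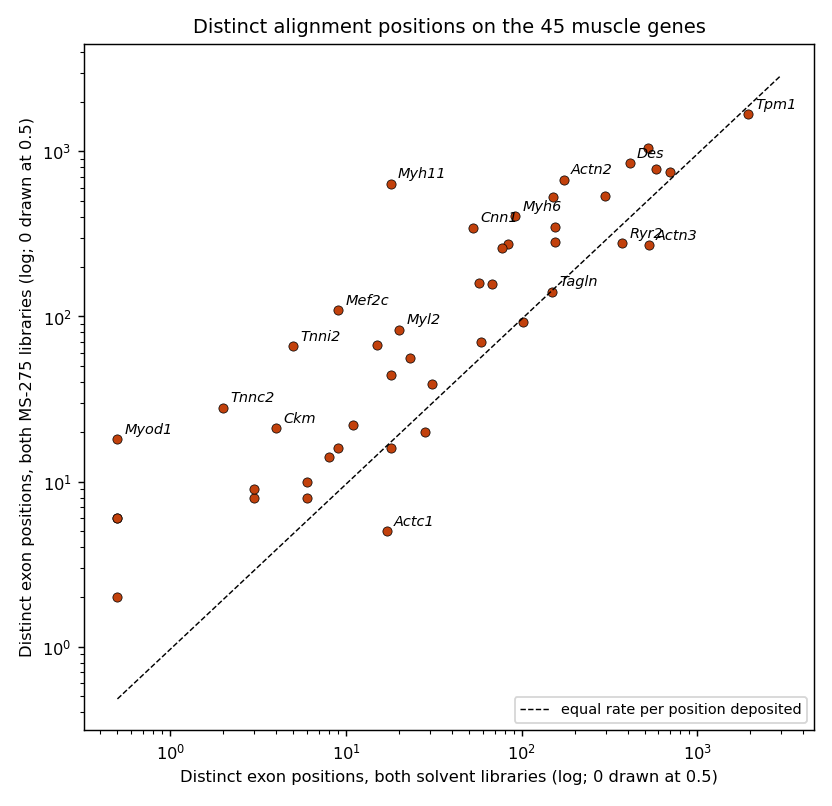
Distinct exon positions of each of the 45 members summed over both solvent libraries (horizontal) and both MS-275 libraries (vertical), on log axes with 0 drawn at 0.5. The dashed line marks an equal rate, and Myh11 (18 against 637), Tnnc2 (2 against 28), Tnni2 (5 against 66) and Mef2c (9 against 109) lie well above it.

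Further muscle genes outside the set moved in both directions. Of 36 other genes of muscle structure and calcium handling, 27 were tested, and 9 were called higher and 2 lower with the block, where 21% and 6.46% of all genes were. Mylk, the kinase that phosphorylates the regulatory light chain, had 0.00713 and 0.00481 with solvent and 0.0840 and 0.0832 with MS-275 (log2 change 3.02 ± 0.61), and Synpo2, an actin-bundling protein of the Z-disc and smooth muscle, had 0.00169 and 0.00325 with solvent and 0.0456 and 0.0230 with MS-275 (2.34 ± 0.57). Both lay far above solvent in both MS-275 libraries. Ldb3, a Z-disc protein, and Dmd, the membrane anchor dystrophin, were the 2 called lower, with log2 changes of -1.43 ± 0.53 and -1.11 ± 0.43.

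Of 17 other regulators of muscle and heart, 16 were tested and 2 were called higher, Tbx5 and Myocd, a smaller share than the 21% of all genes. Tbx5, a T-box factor of the heart, was listed at 0 with solvent and at 0.00387 and 0.00185 with MS-275, and it entered the test through these alone. Myocd, the SRF partner myocardin, had 0.000290 and 0.00113 with solvent and 0.00347 and 0.00391 with MS-275. Eya1 and Mef2b had log2 changes of -0.63 ± 0.68 and -0.55 ± 0.46, neither called with the block. Srf itself had 0.0554 and 0.239 with solvent and 0.0951 and 0.138 with MS-275, with no common direction in the 2 pairs.

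The non-muscle counterparts of these proteins, which every cell uses for its own cytoskeleton, did not pass: 0 of 16 were called by limma in either direction with or without the block, with 0 at an unadjusted p under 0.05 without the block and 2 with it (Cnn2 higher and Tpm4 lower, where 28.9% of all genes were higher and 10.2% lower). By distinct positions with the block, limma-voom called 3 of the 16 higher and 2 lower (all genes: 29.9% and 13.9%). Without the block it called 1 higher and 0 lower (all genes: 15.2% and 5.11%), the 1 being Myh14 (limma-voom adjusted p 0.0365). The largest log2 changes among them were those of Tagln2 (0.75 ± 1.05) and Actb (0.59 ± 3.26) upwards and Tpm4 (-0.64 ± 0.39) and Actg1 (-0.34 ± 0.74) downwards. Of 10 ESC markers, 0 were called higher and 4 lower with the block, where 21% and 6.46% of all genes were. The 4 were Pou5f1, Esrrb, Fgf4 and Utf1, and Fgf4 and Utf1 had log2 changes of -1.56 ± 0.53 and -1.45 ± 0.52. Nanog had -0.23 ± 1.18 and Dppa5a -0.22 ± 1.55. The summed value of the 44 muscle members was 1.28 and 1.02 with solvent and 2.33 and 2.29 with MS-275, against 6.08 and 23.2, and 4.83 and 13.6, for the 10 ESC markers.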

How the data were processed

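The signal values were deposited by the authors: they come from Genomatix software, run on reads aligned to mm9, with no aligner, version or formula given in the sources used here. The alignments, 35 bases each, numbered 9785619 to 23467935 per library. The authors' tables of ratios between groups and their shorter gene tables were not used. Members and gene lists were chosen with earlier results of these data known.

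From the values, log2(value + 0.005) of genes at 0.001 or more in at least 2 libraries was tested with limma 3.58.1 (R 4.3.3, lmFit and eBayes with a trend), and p was adjusted over 20336 genes (Benjamini-Hochberg). Without the block the fit leaves 2 residual degrees of freedom and with it 1. Libraries of the same number deviated together (r = 0.764 over genes). Distinct positions were counted on GENCODE M1 exons with Python 3.11.15 and tested with limma-voom where at least 10 lay in at least 2 libraries (16983 genes). The steps were tested on simulated data.

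In full are given, per role, the member with the highest mean value, the 2 with the largest change with the block, and Mef2c, and of other lists the 2 genes that changed most in each direction, of which 1 is not reported here. Cnn1, Acta2, Tagln, Tnni3, Tnnt2, Myh7, Ttn, Neb, Myocd, Srf, Cnn2 and Pou5f1 were added after their values were seen. The alternatives were other pseudocounts, filters and scalings, no trend, each library left out, and distinct positions. The vehicle is named differently in the sources used here, so the text says solvent.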

Additional observations from a re-analysis of the deposited data

Results flagged for a closer look

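The alignments on the first part of Ttn stood out in data that the expression values do not show. Distinct positions on the exons up to the end of transcript Ttn-021 occurred at a 21.6-fold higher rate with MS-275 than with solvent, with 181 and 152 against 11 and 5 positions. The boundary was set by that transcript and was chosen after the alignments were seen, so the difference was not tested.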

How the results depend on the processing

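Without the block, 0 members were called higher and 0 lower. With the replicate block, which pairs the libraries by number, 22 were called higher and 1 lower, and the count of higher calls was 23 and 21 with pseudocounts of 0.001 and 0.02, 21 with median-ratio scaling and 15 with quantile normalization. The lower calls with the block were 1 and 0 with these pseudocounts, and 2 with either scaling. Of all 20336 genes, 4216 and 3790 were called higher and 1220 and 1158 lower with these pseudocounts. With the scalings 3344 and 2936 genes were called higher and 2806 and 2961 lower. Without the block, 6 of 25 members passed as higher when a mean value of at least 0.01 was required (all genes: 3.16%). Myh11, Tnnc2 and Tnni2 among these 6 met that mean only through their MS-275 libraries. By distinct positions, 13 higher and 1 lower were called without the block and 21 and 1 with it. Leaving out genes that reached the filter only through MS-275, an alternative chosen after seeing the data, gave 20 higher, 1 lower and a median of 0.85 with the block, and 19, 1 and 1.07 by distinct positions. With each library left out in turn, which leaves 1 library in a group, the median log2 fold change, 0.78 in the report, ran from 0.56 to 0.997. That median was 1.11 and 0.32 with pseudocounts of 0.001 and 0.02, 0.71 without a filter, 1.13 for a mean of at least 0.01, 0.64 and 0.35 with the scalings, with and without the block, and 1.13 and 1.14 by distinct positions. The scalings moved the median of all genes from 0.20 to -0.01 and -0.03. Members at least 2-fold higher in both pairs were 10 with a floor of 0.01 (all genes: 4.47%), and 11 reached 3-fold with the floor of 0.001. The share of all genes that reached 3-fold was not computed, so the 11 has no reference to be read against.

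Log2 changes near 0 took the other sign in some settings. Tpm1 (0.0016) became -0.28 with median-ratio scaling, with and without the block, -0.14 and -0.13 by distinct positions, and ran from -0.041 to 0.044 with 1 library left out. Ryr2 (-0.027) ran from -0.44 to 0.38 with 1 library left out. Tagln (-0.045) became 0.0060 with a pseudocount of 0.02, 0.038 and 0.0050 by distinct positions, and ran from -0.83 to 0.74. Ttn (-0.035) became 0.49 and 0.46 by distinct positions, the latter with an adjusted p of 0.0248, and ran from -1.10 to 1.03. Neb (-0.57) became 0.16 and 0.15 by distinct positions and ran from -1.37 to 0.23. The cause was not tested. Myf5, Myf6, Myog, Myh1, Myh2, Myl1 and Tnnt3 rest on few positions per library, which limits what can be seen of them.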
